A study of Mus musculus with 6 samples.

Results

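The genes of antigen presentation were taken from the expression table of a mouse blood stem cell study by name. They are all genes whose symbol starts with H2-, the prefix of the mouse major histocompatibility complex (MHC), together with B2m, Tap1, Tap2, Tapbp, Cd74 and Ciita. Of 32 name matches, 31 had at least 30 reads summed over the 6 libraries and were kept, out of 18491 genes in the table. The gene left out, H2-M10.1, had 26 reads in all, with 0, 0 and 0 in the KO libraries and 0, 22 and 4 in the WT libraries, and the lowest gene kept, Ciita, had 252. The 31 genes comprise 16 class I heavy chain genes, 7 class II genes (H2-Aa, H2-Ab1, H2-Eb1, H2-DMa, H2-DMb1, H2-DMb2 and Cd74) and 8 others. One of the others, H2-Ke6, lies in the complex but encodes a hydroxysteroid dehydrogenase, an enzyme of lipid metabolism, and presents no antigen.

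RNA was sequenced from mouse bone marrow cells that a flow cytometer had sorted as haematopoietic stem and progenitor cells, the cells from which blood lineages arise. There were 3 KO and 3 WT libraries. The design text describes KO as a Robo1 deletion by Mx1-cre, a recombinase driven by an interferon-responsive promoter that is switched on by poly(I:C), a double-stranded RNA given in 3 doses, and cells were collected 8 months later. The 3 doses and the 8 months are recorded for the KO and the WT libraries alike. Robo1 encodes a receptor for Slit guidance proteins. The genotype field calls the same libraries ROBO1 knockdown and the titles call them shROBO1. Under treatment, KO replicate 1 has ROBO1 knockdown, KO replicate 2 ROBO2 knockdown and KO replicate 3 ROBO3 knockdown. The WT libraries have the genotype WT, are titled shCtrl and have a scramble shRNA as treatment. The labels give no strain, age or sex and do not say whether WT mice carried Mx1-cre. Mx1-cre is active in many tissues besides the blood, so the deletion need not be limited to the sorted cells. The labels do not say that the libraries come from separate animals, so p-values cover the spread among these libraries alone, and that spread may be technical. Robo1 was not analysed here, and the genotype was therefore not checked against its transcript.

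MHC class I molecules carry peptides from inside the cell to the surface of nearly all nucleated cells, as a heavy chain paired with beta-2 microglobulin (B2m), after peptides are pumped into the endoplasmic reticulum by the transporter TAP and loaded with the help of tapasin. Class II molecules are alpha and beta chain pairs of professional antigen-presenting cells, which are guided by the invariant chain Cd74, loaded by H2-DM and restrained by H2-O. In blood progenitors class I is widely expressed, while class II is best known from B cells, dendritic cells and macrophages, under the transactivator Ciita.

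The promoters of H2-K1, H2-D1 and B2m are shown because these were the most abundant of the genes per length, and those of H2-Aa and H2-DMb1 as class II genes to set beside them. Each line gives 250 bases before to 50 bases after the RefSeq start, 5′ to 3′ on the strand of the gene, in build GRCm38.p6. The windows are chr17:34000298-34000597 on the minus strand for H2-K1, chr17:35262844-35263143 on the plus strand for H2-D1, chr2:122147437-122147736 on the plus strand for B2m, chr17:34287774-34288073 on the minus strand for H2-Aa and chr17:34152941-34153240 on the plus strand for H2-DMb1. Capitals mark matches to 3 motifs that were searched on both strands.
H2-K1 promoter: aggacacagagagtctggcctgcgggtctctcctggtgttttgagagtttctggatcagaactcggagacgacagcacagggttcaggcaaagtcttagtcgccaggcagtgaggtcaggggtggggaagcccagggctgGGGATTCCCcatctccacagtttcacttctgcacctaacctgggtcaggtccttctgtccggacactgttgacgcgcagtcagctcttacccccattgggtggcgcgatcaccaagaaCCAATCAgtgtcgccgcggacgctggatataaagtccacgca
H2-D1 promoter: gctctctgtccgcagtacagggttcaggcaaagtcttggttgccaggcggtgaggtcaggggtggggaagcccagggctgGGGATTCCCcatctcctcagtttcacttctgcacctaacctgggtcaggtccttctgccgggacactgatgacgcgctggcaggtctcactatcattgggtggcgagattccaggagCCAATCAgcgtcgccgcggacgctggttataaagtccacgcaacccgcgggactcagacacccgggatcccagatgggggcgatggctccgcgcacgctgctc
B2m promoter: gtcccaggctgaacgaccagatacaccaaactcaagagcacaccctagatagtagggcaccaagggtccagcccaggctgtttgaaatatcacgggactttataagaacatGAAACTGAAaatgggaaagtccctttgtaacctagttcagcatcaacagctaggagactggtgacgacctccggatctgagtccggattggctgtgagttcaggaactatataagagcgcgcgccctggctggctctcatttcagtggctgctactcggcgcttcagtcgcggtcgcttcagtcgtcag
H2-Aa promoter: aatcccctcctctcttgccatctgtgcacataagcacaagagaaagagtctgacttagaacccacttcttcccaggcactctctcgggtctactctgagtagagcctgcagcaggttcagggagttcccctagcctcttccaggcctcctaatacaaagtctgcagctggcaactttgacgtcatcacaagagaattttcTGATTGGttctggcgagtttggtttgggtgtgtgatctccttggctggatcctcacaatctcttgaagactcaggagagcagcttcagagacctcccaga
H2-DMb1 promoter: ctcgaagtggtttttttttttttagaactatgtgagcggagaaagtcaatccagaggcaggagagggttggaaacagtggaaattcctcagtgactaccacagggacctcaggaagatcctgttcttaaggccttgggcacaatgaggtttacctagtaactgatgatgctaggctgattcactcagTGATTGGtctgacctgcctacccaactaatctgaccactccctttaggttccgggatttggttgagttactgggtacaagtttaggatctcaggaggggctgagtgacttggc

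The H2-K1 and H2-D1 windows share GGGANTCCC, a motif of the kappa B kind. It begins 110 bases before the RefSeq start in H2-K1 and 170 bases before it in H2-D1. Both also hold TGATTGG, the inverted CCAAT box, on the reverse strand, where it reads CCAATCA. This match begins 8 bases after the RefSeq start in H2-K1 and 53 bases before it in H2-D1. All distances are counted from the RefSeq start and change with its placement. The B2m window holds GAAANNGAA, a core sequence of interferon response elements, 139 bases before the start. TGATTGG lies 50 bases before the start in H2-Aa and 63 bases before it in H2-DMb1. No motifs overlap in these 5 windows. Of the 31 genes 22 had a RefSeq window, among them 11 class I and 5 class II genes. GGGANTCCC was found in 4 of the 11 class I windows (H2-K1, H2-D1, H2-Q6 and H2-Q7), in 0 of the 5 class II windows and in 0.767% of all 32851 windows. TGATTGG was found in 8 of 11 class I windows, 4 of 5 class II windows and 7.82% of all windows. GAAANNGAA was found in H2-T22, H2-T23 and B2m among the 22, and in 8.56% of all windows. A match is a stretch of letters and does not show that a factor is bound. Only exact matches were counted, so a window without a match may still hold a variant of the same element.

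Total counts ran from 42235077 to 57058267 in KO and from 44578916 to 58106099 in WT. The composition of the libraries differed: the 100 most abundant genes took 59.7 to 60.8% of counts in KO and 42.3 to 43.3% in WT. Levels below are in CPM, the usual measure of reads relative to library size, with library sizes scaled by TMM, which assumes that most genes do not differ, with factors of 0.660 to 0.685 in KO and 1.44 to 1.52 in WT. A gene was called higher or lower when edgeR's quasi-likelihood test gave a Benjamini-Hochberg adjusted p under 0.05 over the 15474 genes tested. Scaling by total counts alone moved the median log2 fold change of all genes by -1.13, to -1.22, against -0.09 with TMM, and values with total counts are therefore set beside those with TMM. Of 12 stem and progenitor genes 2 were called higher and 3 lower in KO (0 and 11 with total counts), where 17.2% of all genes tested were called higher and 14.4% lower (4.23% and 70.7% with total counts). Cd34 stood at 101 to 102 CPM in KO and 103 to 112 CPM in WT, and the receptor Kit at 16.6 to 17.2 CPM in KO and 12.3 to 15.7 CPM in WT. Of 8 granule genes of neutrophils and their precursors, 6 were called higher in KO and 0 lower (5 and 1 with total counts). Their summed level was 265221 to 281106 CPM in KO and 84852 to 95206 CPM in WT, mostly Mpo and Elane. At a mean of at least 500 CPM 263 of 275 genes (95.6%) were called higher with TMM, so calls of very abundant genes are near that background.

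Class I heavy chain genes stood higher in KO than in WT, and class II genes did not. Of 16 class I genes 12 were called higher, 0 lower and 4 did not pass, where 17.2% of all genes tested were called higher and 14.4% lower. Of 7 class II genes 0 were called higher, 2 lower and 5 did not pass. The median log2 fold change was 1.71 for class I and -0.24 for class II, beside -0.09 for all genes tested. With total counts 10 class I genes were called higher, 3 lower and 3 neither (background 4.23% higher and 70.7% lower), while all 7 class II genes were called lower, and the medians were 0.58 and -1.37. All 31 genes passed the filter on low counts. Together, 15 of the 31 were called higher and 3 lower with TMM, and 11 higher and 16 lower with total counts.

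**Figure D1:**
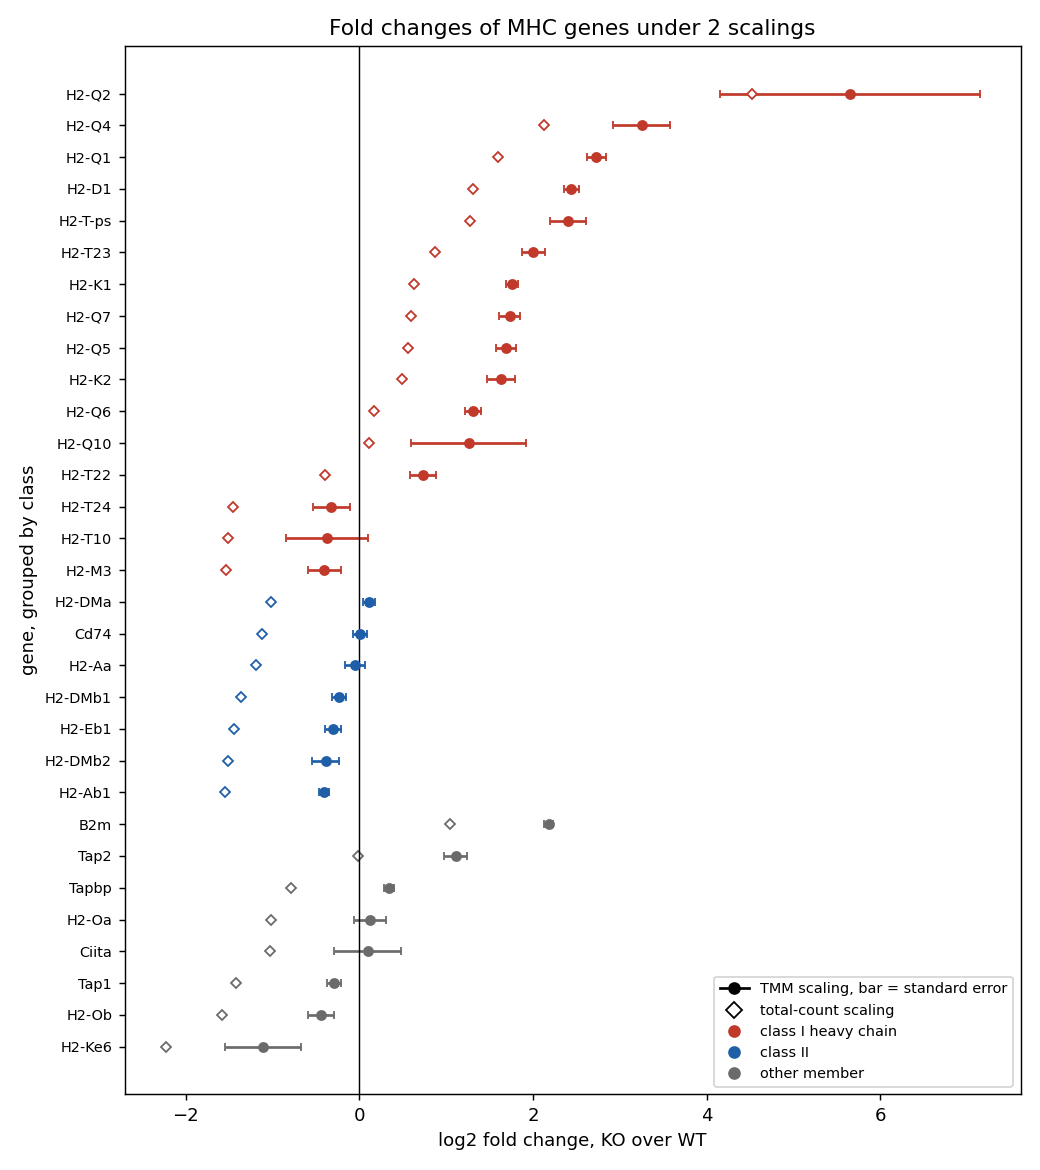
Log2 fold change, KO over WT, of each of the 31 genes from edgeR with TMM scaling, with its standard error, and with total counts as the only scaling. Class I heavy chains lie mostly right of 0, with a median of 1.71, and the 7 class II genes lie between -0.41 and 0.11 with TMM and below 0 with total counts.

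The classical class I heavy chains H2-K1 and H2-D1, which present peptides to cytotoxic T cells, carried most of the class I signal. H2-D1 (chromosome 17, 35262730 to 35267499, plus strand, GRCm38) stood at 4792, 4872 and 4390.5 CPM in the KO libraries, against 952, 771 and 871 CPM in the WT libraries. Its log2 fold change was 2.44 ± 0.09 (SE, edgeR adjusted p = 8.68e-08), or 5.42-fold. H2-K1 (chromosome 17, 33996017 to 34000347, minus strand) stood at 4342, 4423 and 3859 CPM in KO, against 1245, 1231 and 1258 CPM in WT. Both genes were far apart between the groups, with no overlap. The log2 fold change of H2-K1 was 1.76 ± 0.06 (SE, edgeR adjusted p = 1.02e-07), or 3.38-fold. With total counts the 2 genes were still called higher, by log2 fold changes of 1.31 and 0.62. Per length, in FPKM (fragments scaled to transcript length and library total), H2-K1 was 1.22, 1.21 and 1.18 times as abundant as H2-D1 in KO and 1.82, 2.18 and 1.97 times in WT. This ratio, which no library scaling can move, was lower in every KO library.

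B2m, the light chain shared by class I molecules (chromosome 2, 122147686 to 122153083, plus strand), stood at 2471, 2544 and 2433 CPM in KO, against 557, 526 and 563 CPM in WT. The libraries within each group were close together and the groups did not overlap. The log2 fold change was 2.18 ± 0.06 (SE, edgeR adjusted p = 3.26e-08), and 1.04 with total counts. Relative to the summed class I heavy chains, B2m had 0.504, 0.514 and 0.554 times their FPKM in KO and 0.442, 0.457 and 0.465 times in WT. B2m lies outside the MHC, and the ratio was higher in every KO library than in any WT library. All 3 genes belong to the most abundant class of transcripts: of 275 genes with a mean of at least 500 CPM, 263 (95.6%) were called higher with TMM scaling and 150 with total counts. At that abundance the calls of H2-K1, H2-D1 and B2m with TMM scaling are near the background.

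**Figure D2:**
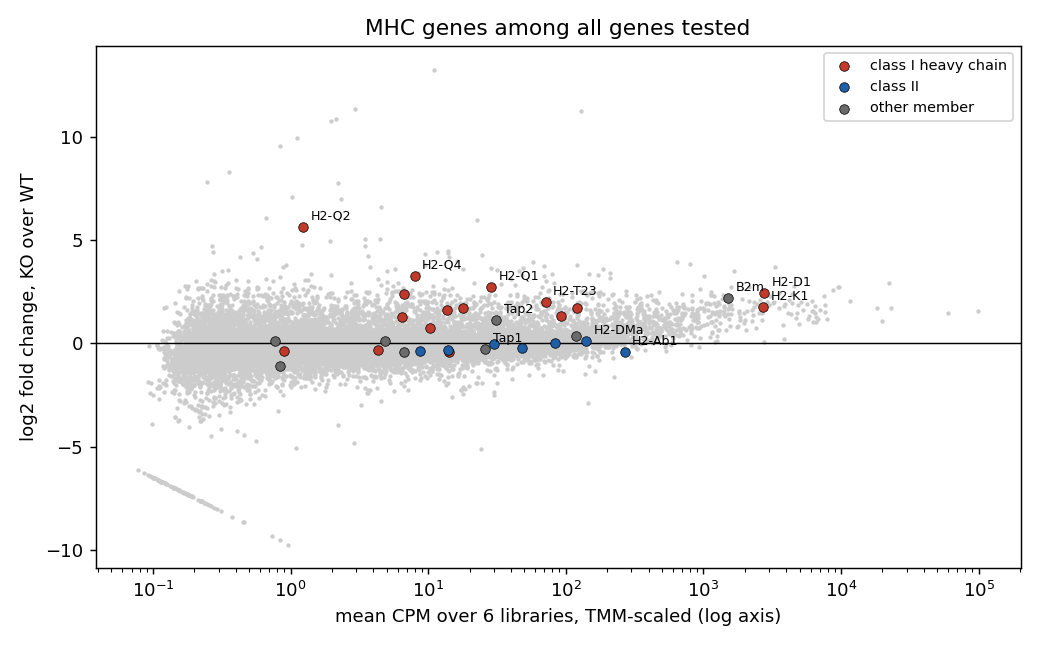
Log2 fold change, KO over WT, of all 15474 genes tested against their mean CPM on a log axis (edgeR, TMM scaling), with the class I, class II and other MHC genes marked. The most abundant genes lie almost all above 0, H2-K1, H2-D1 and B2m among them, while at 10 to 500 CPM most class I genes lie above the class II genes, with H2-M3, at -0.40, an exception.

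Below that level a larger share of the class I genes than of all genes was called higher. At a mean of 10 to 500 CPM 7 of 8 class I genes were called higher, where 1620 of 5145 genes (31.5%) of that abundance were. Of the 6 class II genes in the same range 0 were called higher and 2 lower, H2-Eb1 with its unstable call among them. Of all genes of that abundance 22.5% were called lower. Under 10 CPM 3 of 6 class I genes were called higher, H2-Q2 with its unstable call among them, where 7.82% of all genes were. The mean covers KO and WT libraries together, so a gene can enter a range through its KO level. H2-K2, H2-Q1, H2-Q5 and H2-T22 were in the range of 10 to 500 CPM with WT means of 6.77, 7.55, 8.47 and 7.77 CPM. The shares therefore depend on how the ranges were set. They describe the genes and were not tested as a list.

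The Q genes encode non-classical class I molecules, among them the Qa-2 antigens from H2-Q6 and H2-Q7, and 6 of 7 were called higher. H2-Q7 stood at 194, 205 and 159.5 CPM in KO, against 63.4, 49.8 and 55.3 CPM in WT. H2-Q6 stood at 142, 139 and 116 CPM in KO, against 54.2, 50.8 and 55.3 CPM in WT. Neither gene overlapped between the groups. Their log2 fold changes were 1.73 ± 0.12 and 1.31 ± 0.09 (SE, edgeR adjusted p = 4.17e-06 and 4.48e-06), but with total counts H2-Q7 was called at 0.60 and H2-Q6, at 0.17, was not.

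H2-Q1 had the larger change of the moderately expressed Q genes. It stood at 47.6, 55.6 and 47.0 CPM in KO, against 7.40, 6.85 and 8.38 CPM in WT, and its log2 fold change was 2.73 ± 0.11 (SE, edgeR adjusted p = 1.87e-07; 1.60 with total counts). H2-Q4 stood at 9.90, 20.7 and 12.6 CPM in KO, against 1.86, 0.964 and 1.73 CPM in WT (log2 fold change 3.25 ± 0.33, edgeR adjusted p = 6.13e-05; 2.13 with total counts). H2-Q5, annotated as a polymorphic pseudogene, stood at 27.3, 30.2 and 24.4 CPM in KO, against 8.89, 8.77 and 7.76 CPM in WT (log2 fold change 1.69 ± 0.11, edgeR adjusted p = 3.46e-06; 0.56 with total counts). All 3 genes had every KO library above every WT library and were called with either scaling.

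H2-Q2 and H2-Q10 varied widely within a group. H2-Q2 had 145, 122 and 0 reads in the KO libraries and 0, 11 and 0 in the WT libraries. The groups overlap, because KO replicate 3 had no read. edgeR called it higher (log2 fold change 5.65 ± 1.49 SE, adjusted p = 0.0182), but it lost its call without KO replicate 1, KO replicate 2, WT replicate 1 or WT replicate 3, with adjusted p from 0.00109 to 0.0641 over the 6 fits that left out 1 library, and DESeq2 gave an adjusted p of 0.214. H2-Q10, which in mice encodes a secreted class I protein known from liver, had 324, 304 and 294 reads in KO and 23, 456 and 470 in WT. Scaled, that was 8.60, 8.59 and 10.2 CPM in KO, against 0.359, 5.57 and 5.43 CPM in WT, and WT replicate 1 was far below the others. With all libraries edgeR estimated 1.26 ± 0.66 on the log2 scale (SE, adjusted p = 0.19), and without WT replicate 1 it estimated 0.75 (adjusted p = 0.00724).

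Among the T genes 3 of 5 were called higher. H2-T23 encodes Qa-1, the ligand of the NKG2A receptor on natural killer cells, and stood at 129, 123 and 91.1 CPM in KO, against 31.9, 27.1 and 26.6 CPM in WT. Its groups did not overlap, and the log2 fold change was 2.0 ± 0.14 (SE, edgeR adjusted p = 4.39e-06; 0.87 with total counts). H2-T-ps, annotated as a pseudogene, stood at 9.05, 14.6 and 9.85 CPM in KO, against 2.30, 1.95 and 2.09 CPM in WT (log2 fold change 2.40 ± 0.20, edgeR adjusted p = 1.89e-05; 1.27 with total counts). H2-T22, a ligand of some gamma delta T cell receptors, stood at 10.8, 15.5 and 12.5 CPM in KO, against 7.05, 7.76 and 8.5 CPM in WT. It was called higher with TMM (log2 fold change 0.73 ± 0.15, edgeR adjusted p = 0.0057), but its sign turned with total counts, to -0.40 without a call.

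Class I genes did not all move. H2-M3, which presents formylated peptides of bacteria, stood at 16.0, 9.69 and 10.8 CPM in KO, against 18.4, 15.8 and 14.1 CPM in WT, and KO replicate 1 lay within the WT range. The log2 fold change was -0.40 ± 0.19 (SE, edgeR adjusted p = 0.141), and -1.54 with a call of lower with total counts. Without KO replicate 1 it was called lower with TMM scaling as well, at -0.66 (edgeR adjusted p = 0.0123). H2-T10 and H2-T24 had log2 fold changes of -0.37 and -0.32 (edgeR adjusted p = 0.607 and 0.299) and were likewise called lower with total counts. In contrast H2-K2, a transcribed pseudogene beside H2-K1, stood at 26.1, 19.0 and 17.5 CPM in KO, against 7.05, 7.17 and 6.09 CPM in WT (log2 fold change 1.63 ± 0.16, edgeR adjusted p = 5.09e-05; 0.49 with total counts, also called). Over the 16 genes, 12 had every KO library above every WT library with TMM scaling (background 22.2%) and 0 had every KO library below (24.4%). With total counts these were 9 above (4.85%) and 3 below (76.1%).

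Class I genes are close copies of each other, and reads could be assigned to the wrong copy. Of all 75-base windows in the transcripts of H2-K1 and H2-D1, 3.10% and 5.56% occurred unchanged in another gene. The share was 8.07 to 21.2% for the 7 Q genes, 40.0% for H2-T22, 36.0% for H2-T10, 10.98% for H2-T-ps, 5.91% for H2-T23, 4.99% for H2-K2 and 0.459% for H2-T24, and 0% for H2-M3 and B2m. Values of the single Q genes and of H2-T22, H2-T10 and H2-T-ps are therefore less certain than those of H2-K1, H2-D1, H2-T23, H2-T24 and B2m.

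**Figure D3:**
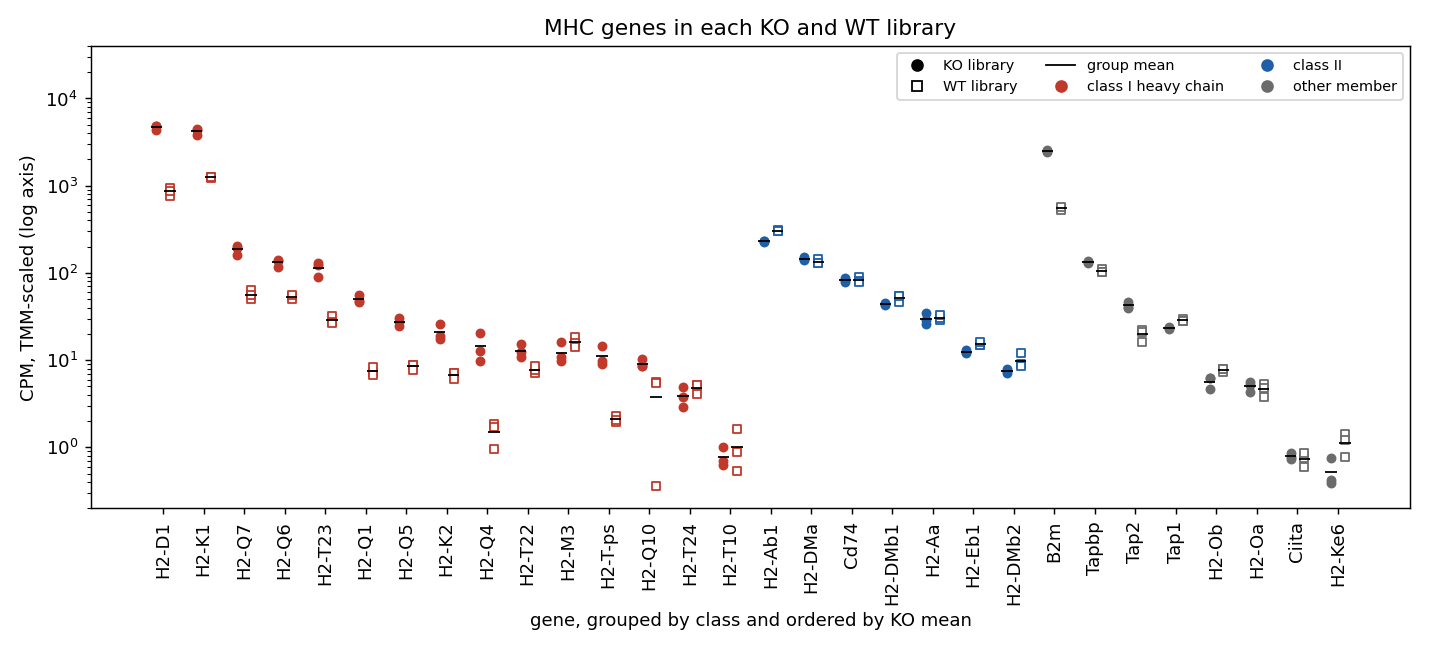
CPM (TMM-scaled, log axis) of each gene in the 3 KO libraries (filled circles) and the 3 WT libraries (open squares), with group means as lines; H2-Q2 is not drawn because some libraries have no read. H2-D1, H2-K1 and B2m stand highest, and most class II genes have KO and WT points at nearly the same level.

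The class II genes followed another course. H2-Ab1, the beta chain of H2-A and the most abundant class II gene (chromosome 17, 34257689 to 34269419, plus strand), stood at 227, 232 and 231 CPM in KO, against 301, 309 and 303 CPM in WT. The KO libraries all lay below the WT libraries, with little spread in either group. The log2 fold change was -0.41 ± 0.05 (SE, edgeR adjusted p = 4.14e-04), or 1.33-fold lower, and it was called in all 6 fits that left out 1 library; with total counts it was -1.54. H2-Aa, the alpha chain of the same molecule, stood at 34.9, 28.6 and 25.7 CPM in KO, against 29.2, 30.4 and 33.0 CPM in WT. Its groups overlapped, and the log2 fold change was -0.05 ± 0.12 (SE, edgeR adjusted p = 0.785), and it was called lower with total counts, at -1.19. The ratio of H2-Ab1 to H2-Aa in FPKM was 6.93, 8.11 and 8.69 in KO and 10.9, 10.5 and 9.67 in WT.

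H2-Eb1, the beta chain of H2-E, stood at 13.1, 12.3 and 12 CPM in KO, against 15.1, 15.1 and 16.1 CPM in WT. The groups did not overlap, and the log2 fold change was -0.30 ± 0.09 (SE, edgeR adjusted p = 0.035). That call was lost in each of the 6 fits that left out 1 library (adjusted p 0.0515 to 0.149) and in DESeq2 (adjusted p = 0.0595).

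The class II loading genes were not called with TMM scaling. H2-DMa, the alpha chain of the peptide exchange factor H2-DM, stood at 145, 151 and 141 CPM in KO, against 144, 131 and 129.7 CPM in WT, with overlapping groups (log2 fold change 0.11, edgeR adjusted p = 0.247). H2-DMb1, one of its beta chains, stood at 42.9, 44.8 and 44.2 CPM in KO, against 54.6, 46.7 and 54.0 CPM in WT (log2 fold change -0.24, edgeR adjusted p = 0.0598). H2-DMb2, the other beta chain, stood at 8.02, 7.12 and 7.49 CPM in KO, against 12.1, 9.08 and 8.48 CPM in WT (log2 fold change -0.39, edgeR adjusted p = 0.0916). With total counts H2-DMa, H2-DMb1 and H2-DMb2 were all called lower, at -1.02, -1.37 and -1.52. With TMM scaling the 2 beta chain genes had every KO library below every WT library, which makes 4 of 7 class II genes with H2-Ab1 and H2-Eb1 (background 24.4%). H2-DMb1 was called lower without WT replicate 2 (log2 fold change -0.29, edgeR adjusted p = 0.0418) and with a correction for transcript length and GC content (-0.44, adjusted p = 0.00245). The beta chain genes share 15.8% and 16.2% of their 75-base windows with other genes, mostly with each other.

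Cd74, the invariant chain, was level between the groups on this scale. It stood at 88.0, 82.3 and 79.0 CPM in KO, against 89.1, 80.0 and 79.0 CPM in WT (log2 fold change 0.01 ± 0.08, edgeR adjusted p = 0.961). With total counts it was called lower, at -1.13, the same as the shift of the median gene. Ciita stood at 0.770, 0.735 and 0.870 CPM in KO, against 0.765, 0.598 and 0.855 CPM in WT, from 25 to 29 reads per KO library and 49 to 74 per WT library. A difference in Ciita was not detectable at this depth with TMM scaling (log2 fold change 0.10 ± 0.39, edgeR adjusted p = 0.879), and it was called lower with total counts, at -1.03. The H2-O genes, inhibitors of H2-DM, had log2 fold changes of 0.12 for H2-Oa and -0.44 for H2-Ob (edgeR adjusted p = 0.681 and 0.0516), and both were called lower with total counts. H2-Ke6 was below 1.5 CPM in every library (log2 fold change -1.11, edgeR adjusted p = 0.0895; -2.23 and called lower with total counts). It was called lower without KO replicate 3, at -1.46 (edgeR adjusted p = 0.0463), and 65.5% of its windows also occur in another gene.

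Because class I and class II moved apart, their ratio within each library was computed, which does not depend on how libraries are scaled to each other. Summed class I heavy chains had 3157, 3265 and 2897 FPKM in KO and 1726, 1702 and 1765 FPKM in WT. Summed class II genes had 266, 268 and 256 FPKM in KO and 647, 672 and 672 FPKM in WT. Class I thus exceeded class II 11.9, 12.2 and 11.3 times in the KO libraries and 2.67, 2.53 and 2.63 times in the WT libraries. The log2 ratio of class II to class I averaged -3.56 ± 0.05 in KO and -1.38 ± 0.04 in WT (SD, n = 3 each), a difference of -2.18. The gap between the groups was many times the spread within them, and it lay between -2.20 and -2.15 with any 1 library left out. No p is given, since the genes were chosen with results of these data known.

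**Figure D4:**
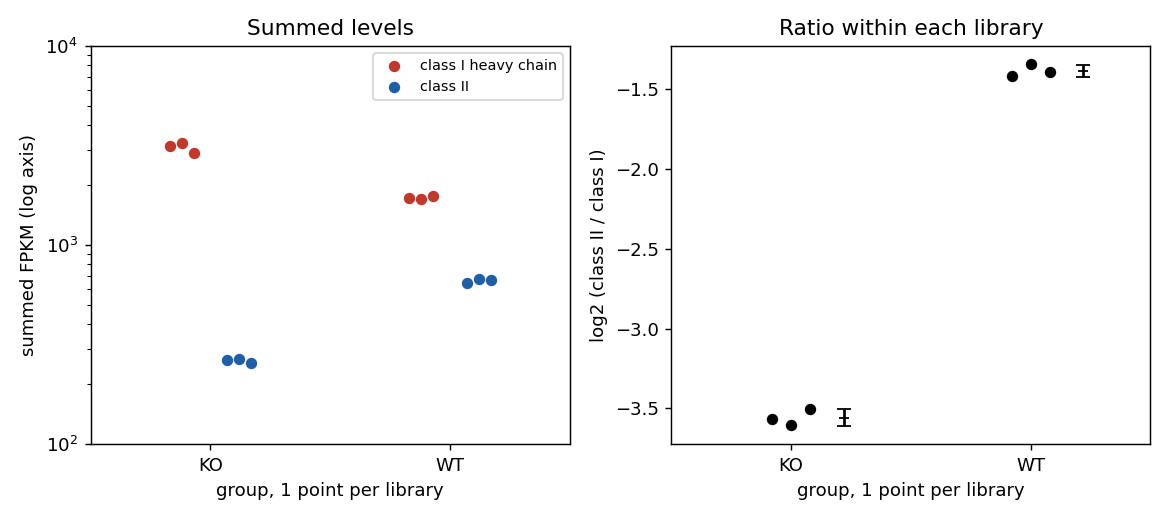
Left, summed FPKM of class I heavy chain and class II genes in each library (log axis); right, log2 ratio of class II to class I in each library with mean and SD (n = 3 each). KO libraries lie near -3.56 and WT libraries near -1.38, and in FPKM, which follow the library totals, class I sums are higher and class II sums lower in KO. The ratio does not depend on the scaling, while the level of either class does: with TMM the class II genes lie between -0.41 and 0.11 on the log2 scale.

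H2-K1 and H2-D1 made up 92.7, 92.5 and 93.3% of the class I sum in KO and 90.5, 91.0 and 91.1% in WT, so the ratio mainly sets these 2 genes against H2-Ab1, H2-DMa and Cd74. The mean over genes on the log2 scale, which gives every gene equal weight, still differed by -1.80 with 0.1 added to each FPKM and by -1.63 with 1 added. H2-K1 and H2-D1 had a mean of over 500 CPM, and H2-Ab1, H2-DMa and Cd74 one of 10 to 500 CPM. With TMM scaling the median log2 fold change of all genes tested was 1.40 in the first range and 0.03 in the second. A shift between genes of these ranges is thus not particular to the MHC, and the part of abundance in the ratio was not tested. In shares of all counts, class I heavy chains took 0.644, 0.681 and 0.596% in KO and 0.345, 0.332 and 0.347% in WT. Class II genes took 0.0369, 0.0382 and 0.0367% in KO and 0.0926, 0.0944 and 0.0929% in WT. In bulk RNA fewer cells that express class II and less class II RNA per cell cannot be told apart.

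Per length B2m, H2-K1 and H2-D1 led in both groups. B2m had 1625 ± 46.7 FPKM in KO and 787 ± 29.4 FPKM in WT, and H2-K1 had 1575 ± 97.7 FPKM in KO and 1046 ± 31.9 FPKM in WT (SD, n = 3 each). B2m and H2-K1 did not differ beyond their spread in KO, while in WT H2-K1 was above B2m. H2-D1 followed with 1308 ± 65.7 FPKM in KO and 527 ± 35.2 FPKM in WT. The next gene was H2-Ab1, with 115 ± 3.32 FPKM in KO and 345 ± 16.1 FPKM in WT, so the most abundant class II gene was more than 10 times below H2-D1 in KO and much nearer to it in WT.

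The genes that load class I peptides did not move as 1 group. Tap1 and Tap2 encode the pair of subunits of the TAP transporter and are neighbours on chromosome 17 (34187553 to 34197225 and 34203527 to 34216321, both on the plus strand). Tap2 stood at 40.0, 47.1 and 41.1 CPM in KO, against 22.2, 16.0 and 21.2 CPM in WT, and was called higher (log2 fold change 1.11 ± 0.13 SE, edgeR adjusted p = 1.85e-04), although with total counts it was not, at -0.02. Tap1 stood at 23.5, 22.6 and 24.2 CPM in KO, against 29.9, 27.8 and 28.3 CPM in WT. Neither gene overlapped between the groups, and they lay in opposite directions. Tap1 was called lower (log2 fold change -0.29 ± 0.08 SE, edgeR adjusted p = 0.0214; -1.42 with total counts), but not without KO replicate 2, WT replicate 1, WT replicate 2 or WT replicate 3 (adjusted p 0.0606 to 0.0758), and with a correction for transcript length and GC content it was -0.09 (adjusted p = 0.465). The ratio of Tap2 to Tap1 in FPKM was 1.63, 1.88 and 1.57 in KO and 0.626, 0.497 and 0.640 in WT, a difference that no library scaling can move.

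Tapbp encodes tapasin, the bridge between TAP and class I. It stood at 136, 133 and 131 CPM in KO, against 110.0, 103 and 103 CPM in WT. The groups did not overlap, and the call turned with the scaling: higher with TMM (log2 fold change 0.34 ± 0.06 SE, edgeR adjusted p = 0.00274) and lower with total counts, at -0.79. Of the windows of Tap2 and Tapbp 8.27% and 18.6% also occur in overlapping or similar genes, and no source used here states whether counting was by strand.

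The 28 genes on chromosome 17 fall into blocks by position. From Tapbp, H2-K2 and H2-K1 the order runs through the class II region, from H2-Oa to H2-Eb1, and on to H2-D1, the Q genes, the T genes and H2-M3. H2-K2 and H2-K1 on one side of that region, and all 7 genes from H2-D1 to H2-Q7 on the other, were called higher with TMM scaling. In the class II region between them Tap2 was the only gene called higher, between Tap1 and H2-Ob with log2 fold changes of -0.29 and -0.44. The T genes were mixed, with H2-T24 and H2-T10 at either end not called. B2m, on chromosome 2, moved with the class I block, and Cd74, on chromosome 18, overlapped between the groups with TMM scaling, as H2-Oa, H2-DMa and H2-Aa did. H2-DMb2, H2-DMb1, Tap1, H2-Ob, H2-Ab1 and H2-Eb1 had every KO library below every WT library with TMM scaling.

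**Figure D5:**
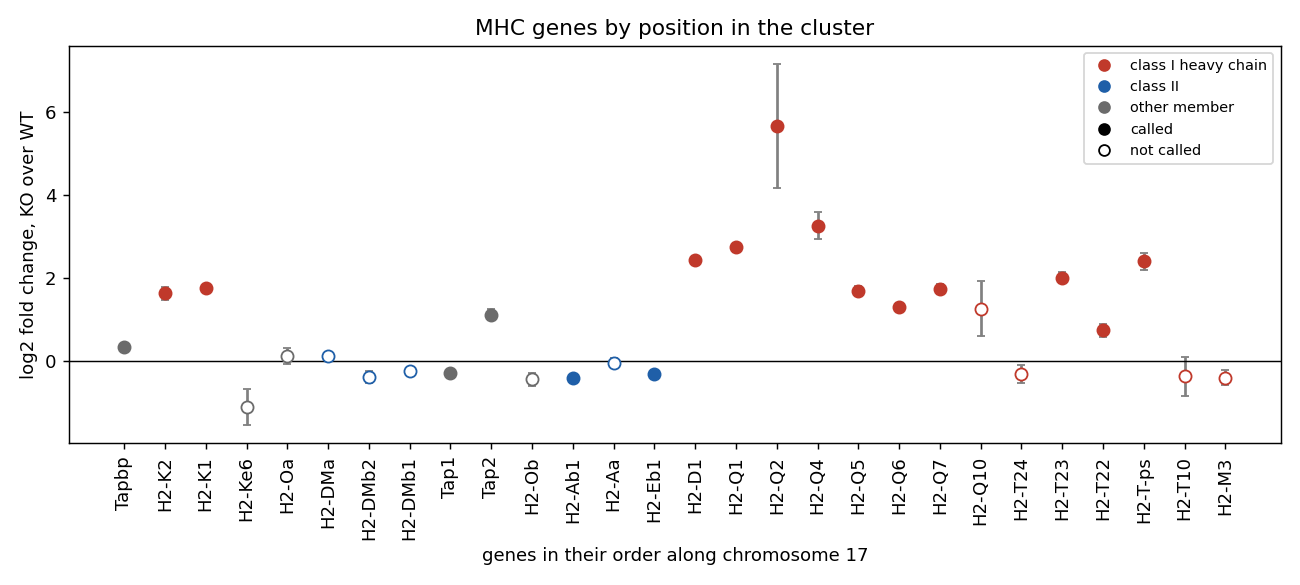
Log2 fold change, KO over WT (edgeR, TMM scaling, with standard error), of the 28 genes on chromosome 17 in their order along the chromosome. Higher class I genes flank a class II region whose genes lie between -0.44 and 0.12, apart from Tap2, at 1.11.

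Other genes of the same pathways were taken from lists chosen for their role, and their counts stand beside a background of 17.2% higher and 14.4% lower with TMM and of 4.23% higher and 70.7% lower with total counts. None of the lists was tested as a group. Among 8 further genes of class I folding and peptide loading 4 were called higher and 0 lower (3 and 4 with total counts). The abundance of 3 of the 4, Calr, Pdia3 and Hspa5, was over 500 CPM on average, where 95.6% of all genes were called higher with TMM, so these calls are near the background. Calr, a chaperone of the loading complex, averaged 1552 ± 91.8 CPM in KO and 377 ± 20.1 CPM in WT (SD, n = 3 each; log2 fold change 2.04, edgeR adjusted p = 7.27e-08). Pdia3, its partner disulfide isomerase, and the chaperone Hspa5 had log2 fold changes of 1.45 and 1.48, and with total counts of 0.31 and 0.34. Canx was called at 0.87 but turned to -0.26 with total counts. The trimming peptidase Erap1 and the tapasin-related Tapbpl were not called, at -0.23 and 0.02 (edgeR adjusted p = 0.158 and 0.938). The median of the 8 was 0.46, and -0.67 with total counts.

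Among 7 genes of the immunoproteasome and its activators, which cut proteins into class I peptides, 3 were called higher and 1 lower, and Psmb8 lay in the range over 500 CPM. Psmb8, a catalytic subunit, averaged 1223 ± 14.2 CPM in KO and 601 ± 53.1 CPM in WT (SD, n = 3 each; log2 fold change 1.03, edgeR adjusted p = 4.31e-06; -0.11 with total counts). The activator Psme1 and the subunit Psma5 had log2 fold changes of 0.98 and 0.82 (edgeR adjusted p = 3.17e-06 and 8.25e-06), and both turned with total counts, to -0.15 and -0.32. Psme3, an activator of the nucleus, was called lower at -0.90. The other catalytic subunits, Psmb9 and Psmb10, were not called, at 0.23 and 0.14 (edgeR adjusted p = 0.0737 and 0.362). The median of the 7 was 0.23, and with total counts, where 0 were called higher and 6 lower, it was -0.90.

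Of 15 transcription factors that act on MHC promoters 3 were called higher and 6 lower. At a mean of 10 to 500 CPM 31.5% of all genes were called higher and 22.5% lower, and under 10 CPM 7.82% and 10.7%. Rfx5, which binds the X box, averaged 0.581 ± 0.116 CPM in KO and 1.54 ± 0.186 CPM in WT (SD, n = 3 each; log2 fold change -1.41, edgeR adjusted p = 0.0101). Spi1, Irf2, Irf8, Nfyb and Nfkb1 were also called lower, at -0.76, -0.64, -0.64, -0.40 and -0.27. Nfyc, a subunit of the factor that binds CCAAT boxes, Rela, a subunit of NF-kappa B, and Irf1 were called higher, at 0.61, 0.53 and 0.51, but with total counts all 15 were called lower. The median of the 15 was -0.30, and -1.44 with total counts. Nlrc5, the class I transactivator, averaged 2.89 ± 0.479 CPM in KO and 3.88 ± 0.397 CPM in WT and was not called (log2 fold change -0.42, edgeR adjusted p = 0.137). Its level was not higher in KO on either scaling, at -1.56 with total counts.

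Among 9 genes of interferon gamma signalling, which is known to raise both classes, 4 were called higher and 0 lower, and with total counts 0 higher and 6 lower. The receptor chain Ifngr1 averaged 504 ± 6.09 CPM in KO and 249 ± 9.64 CPM in WT (SD, n = 3 each; log2 fold change 1.02, edgeR adjusted p = 1.23e-06; -0.11 with total counts). Ptpn2 and Irf1 were called at 0.60 and 0.51 and turned with total counts, to -0.54 and -0.62, while Socs3, at 1.20 ± 0.277 CPM in KO and 0.325 ± 0.0462 CPM in WT, kept its sign at 1.87 and 0.73. The median of the 9 was 0.30, and -0.83 with total counts.

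Proteases and helpers of class II processing had 5 genes called higher and 2 lower of 10, and 0 and 6 with total counts. Of these Ctsz and Ctsb lay in the range over 500 CPM. The cathepsins Ctsz and Ctsd and the reductase Ifi30 had log2 fold changes of 1.0, 1.02 and 0.93 (edgeR adjusted p = 8.18e-07, 1.4e-06 and 4.73e-04), and Ctsb and Ctsl of 0.58 and 0.85. All 5 turned below 0 with total counts, between -0.55 and -0.11. Ctss, the protease that removes the invariant chain in B cells and dendritic cells, and Cd83, which stabilises class II at the surface, were called lower, at -0.39 and -0.90. The median of the 10 was 0.14, and -1.0 with total counts. Of 7 tested class I-like genes outside the H2 family, among them Cd1d1, Mr1 and Fcgrt, and of 5 tested costimulatory genes, 0 were called in either direction by edgeR with TMM scaling or by DESeq2. At an unadjusted p under 0.05 there were 2 of the 7 and 0 of the 5. With total counts 6 of the 7 and 3 of the 5 were called lower.

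Markers of blood cell types that could enter the sort were set beside these values. Only some of these types are known for class II, B cells, dendritic cells and macrophages among them. The background was the same, 17.2% higher and 14.4% lower (4.23% and 70.7% with total counts). Of 10 dendritic cell genes 0 were called higher and 2, Itgax and Irf8, lower (0 and 7 with total counts), and their summed level was 64.1 to 98.6 CPM in KO and 120.0 to 129.0 CPM in WT, most of it Irf8. Itgax, an integrin of dendritic cells and other myeloid cells, was at 0 in every KO library. In WT it stood at 0.422, 0.440 and 0.612 CPM. Siglech, Ccr9 and Clec9a were not called, at log2 fold changes of 1.17, 0.14 and 0.08 (edgeR adjusted p = 0.456, 0.905 and 0.971). Zbtb46 and Flt3 were not called either, at -1.22 and -0.21 (edgeR adjusted p = 0.086 and 0.345). For Zbtb46 every KO library lay below every WT library. The median of the 10 was -0.42, and -1.55 with total counts. Of 7 tested B cell genes 1 was called higher and 3 lower (0 and 5 with total counts), with a summed level of 153 to 167 CPM in KO and 154 to 172 CPM in WT. That sum was mostly Cd37 and Cd79b, which moved in opposite directions. Cd37, the gene called higher, averaged 80.1 CPM in KO and 60.7 CPM in WT, and Cd79b 70.2 and 87.2 CPM. The genes called lower were Cd79b, Cd79a and Ebf1, at log2 fold changes of -0.31, -0.48 and -1.80. Of 9 tested monocyte and macrophage genes 1 was called higher and 1 lower (0 and 7), with sums of 120 to 126 CPM in KO and 125 to 132 CPM in WT. Of 6 plasma cell genes 1 was called higher and 1 lower (0 and 5), with sums of 999 to 1163 CPM in KO and 730.0 to 813 CPM in WT, mostly Jchain. Of 5 tested T and natural killer cell genes 0 were called higher and 1 lower (0 and 5), with sums of 8.02 to 9.30 CPM in KO and 13.8 to 15.0 CPM in WT. Of 7 erythroid genes 4, all globins, were called higher and 1 lower (4 and 3), with sums of 4763 to 5729 CPM in KO and 1426 to 1918 CPM in WT. At a mean of at least 500 CPM, as for Jchain, 95.6% of all genes were called higher with TMM. The part of any of these cell types in the MHC values was not tested.

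In the authors' deposited table, which comes from their own DESeq2 comparison, 12 of the 31 genes are marked UP and 19 STABLE. The 12 are B2m, Tap2, H2-D1, H2-K1, H2-K2, H2-Q1, H2-Q4, H2-Q5, H2-Q6, H2-Q7, H2-T-ps and H2-T23. The authors' deposited table gives H2-D1 a log2 fold change of 2.44 and H2-Ab1 one of -0.40. STABLE there does not always mean a lack of significance. H2-Q2 and H2-Q10, at log2 fold changes of 5.77 and 1.29, are STABLE with adjusted p of 0.226 and 0.387 in that DESeq2 comparison. Other STABLE genes did pass. H2-Ab1, Tapbp and H2-T22 are marked STABLE with adjusted p of 8.28e-09, 6.47e-05 and 5.04e-04 in the authors' DESeq2 comparison. The lowest log2 fold change among the UP genes is 1.12, that of Tap2. These marks are therefore not the same measure as the calls above, which had no limit on fold change.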

How the data were processed

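The authors deposited 1 table with raw read counts per gene and library. Tools listed in the submitters' processing notes are featureCounts 2.0.1, HISAT2 2.2.1, fastp 0.22.0 and DESeq2 1.32.0, with build mm10, and no order or options. The authors also deposited length-scaled values under headers that name no unit. These deposited values were read as FPKM since 98.5 to 99.0% of values of single-transcript genes with at least 500 counts lay within 1% of 1 multiple of the FPKM computed from the counts (620 to 877 genes per library). For 3 genes (H2-Q10, H2-T10 and H2-Ke6) the implied length varied over 1.5 times between libraries. The authors' deposited DESeq2 columns, namely a mean signal, log2 fold change with its error, test score and p-value, were used only to describe that table.

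Groups and replicate numbers follow the sample descriptions. Counts were tested with edgeR 4.0.16 in R 4.3.3 (filterByExpr, TMM, glmQLFit and glmQLFTest, two-sided, group as the only term) on all 15474 genes that passed. The procedure was tested on simulated data. Standard errors are the log2 fold change over the square root of the F statistic. Replicates were checked for duplicates by a chi-square test of their counts, and none was found (13.8 to 39.4 per degree of freedom). Coordinates are from GENCODE vM21 on GRCm38, the assembly of mm10, and promoter windows from RefSeq. Class ratios are sums of FPKM and were not tested.

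The genes, lists and tests were chosen with earlier results of these data known. Named are all members called, the class I and II genes given by role, and up to 4 genes of lowest p from each list; other list genes, such as Rfx5, Nlrc5, Psmb9 and Psmb10, were named after their values were seen, and some list genes are not reported here. Alternatives were total counts, RLE size factors, DESeq2 1.42.0, no filter, leaving out each library, a replicate block and, added after seeing the data, a correction for transcript length and GC content (99.9% of tested genes had both).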

Additional observations from a re-analysis of the deposited data

How the results depend on the processing

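Total counts moved most results. With them 11592 genes were called against 4898, of which 5.65% were higher against 54.5% with TMM, and 11 of the MHC genes were called higher and 16 lower, in place of 15 and 3. The signs that turned with total counts were those of H2-T22 (-0.40), H2-DMa (-1.02), Cd74 (-1.13), Tap2 (-0.02), Tapbp (-0.79), H2-Oa (-1.01) and Ciita (-1.03). The cause of the composition difference behind this was not tested. RLE size factors, DESeq2 and no filter gave 4789, 4994 and 4762 calls and 15, 14 and 15 higher and 3, 2 and 3 lower MHC genes. The correction for transcript length and GC content, chosen after seeing the data, moved the median gene by 0.15 and called 4761 genes, 65.2% of them higher, and 15 MHC genes higher and 4 lower.

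Leaving out 1 library gave 3582 to 4656 genes called, 14 to 15 MHC genes higher and 1 to 3 lower. There was 1 lower, H2-Ab1, without KO replicate 2, WT replicate 1 or WT replicate 3. Other signs that turned belong to genes without a call: H2-Aa (-0.18 to 0.041 with 1 library left out, 0.011 without WT replicate 3 and 0.16 with the length and GC correction), H2-DMa (-0.021 with that correction), Cd74 (-0.018 with that correction, -0.012 without a filter and -0.037 to 0.077 with 1 library left out), H2-T10 (-0.66 to 0.15 with 1 library left out), H2-Oa (-0.0043 to 0.24) and Ciita (-0.026 to 0.23). The difference of the log2 ratio of class II to class I, -2.18, was -2.23 with raw counts, -1.80 and -1.63 as a mean of log2 values with 0.1 and 1 added, -2.38 with the class II chains only, -2.17 with H2-Oa and H2-Ob, -2.21 with H2-K1 and H2-D1 only, and -2.20 to -2.15 with 1 library left out.

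With the replicate number as a block 4373 genes were called, and 15 MHC genes higher and 3 lower. Of the 31 genes 29 kept their side of the threshold, H2-M3 gained a call (edgeR adjusted p = 0.048) and H2-Eb1 lost it (edgeR adjusted p = 0.0794). Same-numbered libraries had correlations of 0.041, -0.0051 and 0.048 of their deviations from the group means, so the number does not pair them. Low counts limit what can be said of Ciita, H2-Ke6, H2-T10 and H2-Q2.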
